A study of Mus musculus with 18 samples.

Results

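The 4 genes of inhibitor of DNA binding (ID) proteins, Id1, Id2, Id3 and Id4, were read with 3 SMAD genes that lie on the same signalling route, Smad6, Smad7 and Smad9. These 7 genes were chosen by symbol from the 56691 genes of the count table, each had 1 row, and all 7 were among the 17631 genes that passed the filter on low counts. The samples were bone marrow mesenchymal stem cells (BMSCs) of wild-type mice, taken from compact bone by collagenase digestion, and all groups were harvested on day 4. Groups of 3 were kept in culture medium (CM), osteogenic induction medium (OI), which holds ascorbate-2-phosphate, dexamethasone and beta-glycerol phosphate, or in a medium for adipogenic induction (AI), which holds dexamethasone at a higher concentration, rosiglitazone, 3-isobutyl-1-methylxanthine and insulin. The same media with 20 ng/ml recombinant mouse FGF9 gave CM_F9, OI_F9 and AI_F9, which makes 18 samples in 6 groups. The study bred its Fgf9 mutant line into the C57BL/6 background and took wild-type BMSCs at 1 month of age for other FGF9 experiments, but its methods do not give age or strain for these libraries. They call replicates biological without saying whether each came from another mouse, so p-values measure the spread between these samples, which may be partly technical.

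ID proteins are helix-loop-helix proteins that lack the basic region which contacts DNA. They bind the E proteins, encoded by Tcf3, Tcf4 and Tcf12, and so keep E proteins and their tissue-specific basic helix-loop-helix (bHLH) partners from binding DNA. Bone morphogenetic proteins (BMPs) act through SMAD1, SMAD5 and SMAD9, and Id1, Id2 and Id3 are textbook direct targets of that pathway. Smad6 and Smad7 are also induced by it and encode the inhibitory SMADs, of which SMAD6 acts mainly on BMP receptors and SMAD7 on both TGF-beta and BMP receptors. Smad9 (also called Smad8) encodes a receptor-regulated SMAD rather than an inhibitory one, and its transcription is likewise raised by BMP.

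The genes lie on 7 chromosomes. In the GRCm39 coordinates of the deposited table, Id1 spans chr2:152578171-152579330, Id2 chr12:25143798-25147139, Id3 chr4:135870808-135873066 and Id4 chr13:48414704-48419502. Smad6 spans chr9:63860358-63929341 and Smad9 chr3:54663003-54708678, with Id2 and Smad6 on the minus strand and the other genes on the plus strand. The span of Id4 overlaps other genes of the table, the antisense A330033J07Rik and Gm49291. Those had 0 to 6 and 0 to 5 reads in a library, against 124 to 1803 for Id4, and no source used here states whether the counting took strand into account.

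RefSeq's promoter table for build GRCm38.p6 matched 5 of the 7 genes, without Id1 and Smad7. The 250 bases before the start are shown for the 3 of these whose window lay outside the annotated gene, Id4, Smad6 and Smad9. Id2 and Id3 were left out by that rule. Of the genes shown, Id4 and Smad9 had the widest range between groups below, and Smad6 was the SMAD gene that fell with FGF9 in every medium. The windows are chr13:48260866-48261115 on the plus strand, chr9:64022060-64022309 on the minus strand and chr3:54755332-54755581 on the plus strand, each in the direction of transcription. Capitals mark GGCGCC, a GC-rich element of BMP-responsive promoters that reads the same on both strands. CAGAC and its reverse complement GTCTG, the short SMAD-binding element, would also be in capitals and have no overlap with the first motif.
Id4: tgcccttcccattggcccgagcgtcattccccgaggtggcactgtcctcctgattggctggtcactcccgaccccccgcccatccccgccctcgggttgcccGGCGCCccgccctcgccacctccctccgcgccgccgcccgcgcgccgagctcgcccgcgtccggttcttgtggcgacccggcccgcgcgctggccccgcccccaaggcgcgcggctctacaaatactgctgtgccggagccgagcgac
Smad6: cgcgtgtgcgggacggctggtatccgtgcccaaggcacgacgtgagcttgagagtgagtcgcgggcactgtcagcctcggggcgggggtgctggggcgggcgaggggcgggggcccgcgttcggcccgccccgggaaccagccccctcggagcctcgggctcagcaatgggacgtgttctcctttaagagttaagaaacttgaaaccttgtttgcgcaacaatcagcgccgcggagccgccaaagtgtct
Smad9: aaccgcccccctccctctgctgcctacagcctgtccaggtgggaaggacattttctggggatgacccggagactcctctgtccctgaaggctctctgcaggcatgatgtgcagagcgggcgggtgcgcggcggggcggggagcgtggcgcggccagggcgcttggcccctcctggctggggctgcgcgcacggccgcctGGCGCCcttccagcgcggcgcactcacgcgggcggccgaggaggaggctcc
GGCGCC occurred 1 time in the Id4 window, its first base 148 bases before the start, and 1 time in the Smad9 window, 51 bases before it, and 0 times in the Smad6 window. Of 32851 windows of this length in the table, 9.59% held GGCGCC. No window of these 3 held CAGAC or GTCTG, which 42.2% of all windows did. A match describes these letters only.

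The libraries held 16719561 to 20526502 counted reads with a median of 18813494. Replicate 3 stood apart in OI, OI_F9, AI and AI_F9. Over all genes, the variance between replicate 3 and another replicate of these groups was 5.48 to 13.7 times the counting variance, and that between replicates 1 and 2 was 2.59 to 6.96 times. The members' results were therefore also computed without the replicate 3 of all 6 groups, and the values are given where a call changed, which was not done for the other genes and the marker lists. Of 12 stromal markers, 11 had 1 FPKM or more in CM, with a summed level of 1129 to 1157 FPKM there. Itgb1 alone had a mean of 385 FPKM, so this sum is no check of purity. Among genes of the paper's negative surface markers, Cd34 had a mean of 10.9 FPKM in CM, Ptprc 3.62 and Pecam1 0.803. Markers of other cells were present too. The macrophage and haematopoietic list of 15 genes summed to 454 to 771 FPKM in CM, and the endothelial list of 15 to 10.5 to 13.4 FPKM.

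Levels are given as FPKM, reads per kilobase of exon length, scaled to the library total, which can be compared between genes. Differences are log2 fold changes of the counts from edgeR's quasi-likelihood test with trimmed-mean (TMM) scaling, with the standard error (SE) and the p-value adjusted by Benjamini-Hochberg over all 17631 genes. A gene was said to rise or fall where the adjusted p was at most 0.05, and it was a differentially expressed gene (DEG) where the log2 fold change was also at least 1 in size. FPKM are divided by the library total alone. With that scaling in edgeR, the median of all genes for FGF9 in AI moved by -0.20 on the log2 scale, so AI_F9 levels in FPKM read lower than the TMM values.

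Id4 had the largest change with FGF9 of the 7 genes in CM and OI, and in AI its fall was close to that of Id3. It had 8.36, 7.72 and 7.54 FPKM in CM and 2.52, 2.33 and 1.93 in CM_F9. The OI samples had 23.5, 21.9 and 24.9 FPKM, the OI_F9 samples 2.63, 2.41 and 2.46. For AI the values were 6.94, 7.50 and 7.73 FPKM against 2.99, 3.05 and 3.09 for AI_F9. No FGF9-treated sample reached the lowest untreated sample of its medium, and the 9 FGF9-treated samples lay between 1.93 and 3.09 FPKM in all 3 media, whereas the untreated samples ran from 6.94 to 24.9. The log2 fold change with FGF9 was -1.86 (SE 0.09, edgeR adjusted p = 4.99e-14) in CM, -3.28 (SE 0.09, adjusted p = 6.88e-19) in OI and -1.07 (SE 0.09, adjusted p = 3.54e-10) in AI. Id4 was thus a DEG that fell in each medium, by 3.63-fold, 9.71-fold and 2.10-fold.

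The size of the Id4 response was set against the level without FGF9. OI alone raised Id4 over CM by 1.55 on the log2 scale (SE 0.08, edgeR adjusted p = 4.09e-13), and AI had less of it than OI by -1.76 (SE 0.08, adjusted p = 5.74e-15). Against CM, AI differed by -0.20 (SE 0.08, adjusted p = 0.0338) with overlapping values, and with library totals as the scaling this call was lost (adjusted p = 0.332), as it was without CM replicate 1, CM replicate 2, AI replicate 1 or AI replicate 2 (adjusted p from 0.0653 to 0.162). The fall with FGF9 was larger in OI than in CM, with a difference between the 2 fold changes of -1.42 (SE 0.13, adjusted p = 6.35e-08). It was smaller in AI than in OI by 2.21 (SE 0.12, adjusted p = 1.73e-12) and smaller in AI than in CM by 0.79 (SE 0.13, adjusted p = 2.19e-05), which was 0.52 with library totals as the scaling and 0.40 to 0.51 with limma on log2 FPKM. These differences share the untreated samples of each medium with the media comparisons above.

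**Figure D1:**
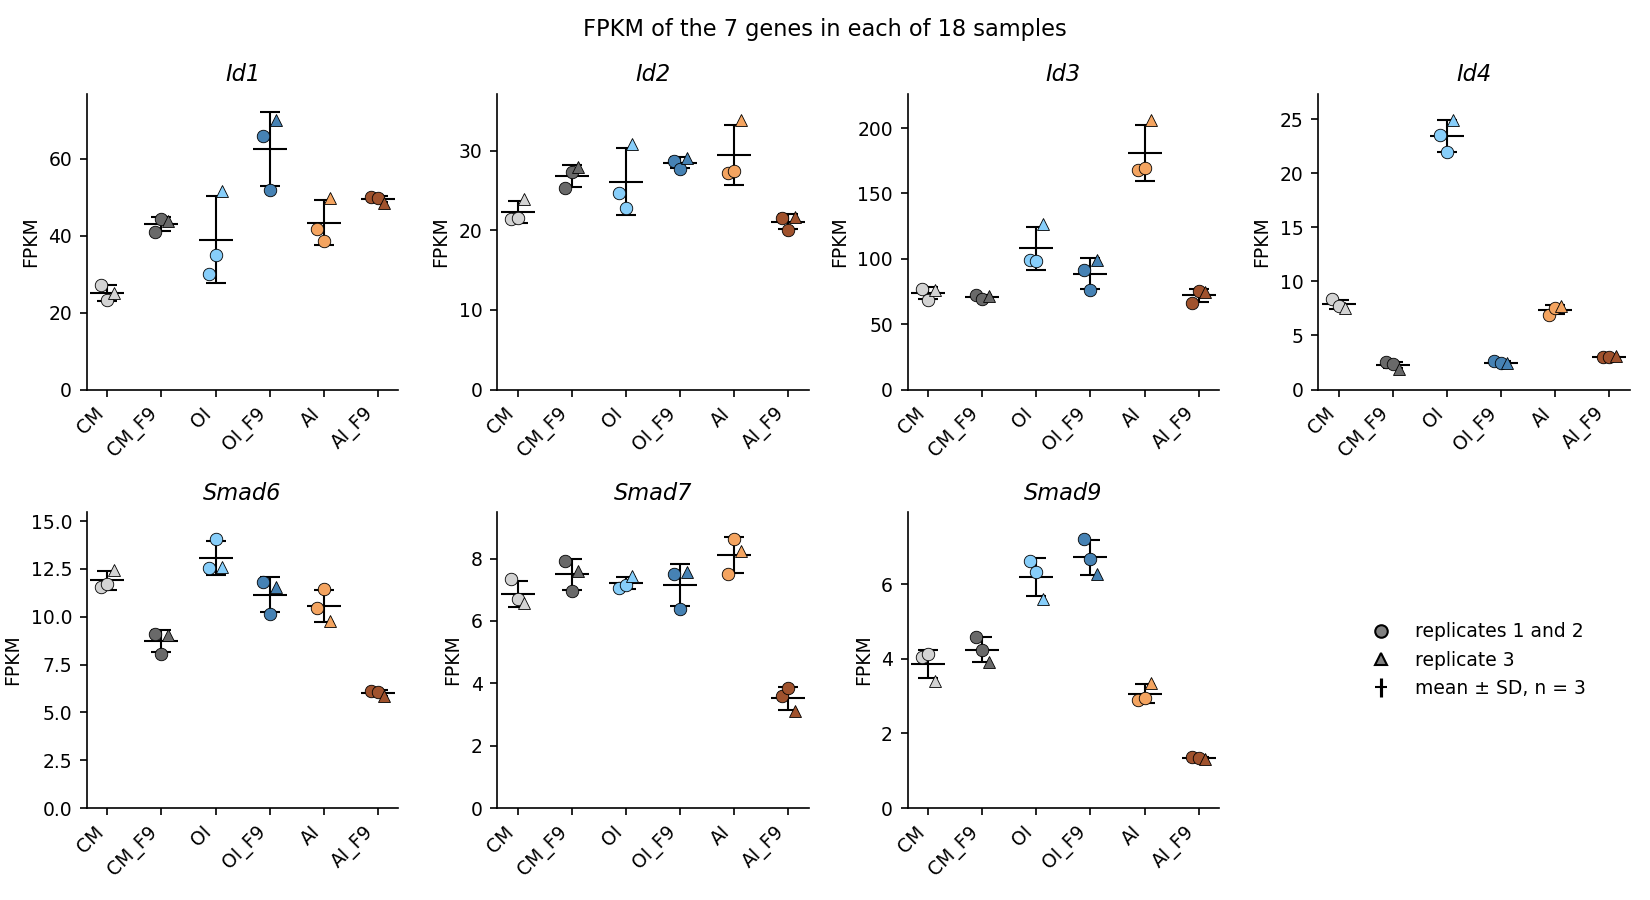
FPKM (vertical axes, from 0) of the 7 genes in each of the 18 samples, by group. Circles are replicates 1 and 2, triangles replicate 3, and bars the mean ± SD of 3 samples. Id4 lies at 1.93 to 3.09 FPKM in every FGF9 group, Id1 is lowest in CM, and Smad7 stands lower in AI_F9 alone.

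Id1, the ID gene most often used as a readout of BMP signalling, went the other way. It had 27.2, 23.1 and 25.2 FPKM in CM and 41.0, 44.3 and 43.8 in CM_F9. In OI it had 30.1, 35.0 and 51.7 FPKM, the highest being replicate 3, against 65.9, 51.8 and 69.9 with FGF9. The AI samples had 41.7, 38.6 and 49.8 FPKM, the AI_F9 samples 49.99, 49.67 and 48.5. The groups did not overlap in CM and in OI, where the closest pair of samples was 51.7 and 51.8, and overlapped in AI. Id1 rose with FGF9 by 0.71 (SE 0.14, edgeR adjusted p = 3.36e-04) in CM, 0.63 (SE 0.14, adjusted p = 7.27e-04) in OI and 0.39 (SE 0.14, adjusted p = 0.0211) in AI. The rise in AI was lost when library totals were the scaling, where it was 0.19 (adjusted p = 0.27), with DESeq2 (0.39, adjusted p = 0.0552), and without AI replicate 1, AI replicate 2 or AI_F9 replicate 1 (adjusted p = 0.0885, 0.133 and 0.0502). No difference between the Id1 responses of 2 media passed the test, with an interval of -0.71 to 0.07 for AI minus CM (95%, estimate ± 1.96 SE). With library totals as the scaling the responses in AI were below those in CM and OI by -0.59 and -0.50 (adjusted p = 0.0186 and 0.0411), and without OI replicate 3 that for AI minus OI was -0.49 (adjusted p = 0.0119). Without FGF9, Id1 was higher in OI than in CM by 0.61 (SE 0.14, adjusted p = 0.00307), which was 0.34 without OI replicate 3 (adjusted p = 0.0436), and higher in AI than in CM by 0.67 (SE 0.14, adjusted p = 3.12e-04).

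Id3 was the most abundant ID transcript in every group. It had 77.0, 68.8 and 75.95 FPKM in CM and 72.0, 69.6 and 71.7 in CM_F9, which overlapped. The OI samples had 98.9, 98.4 and 127 FPKM, against 91.2, 75.8 and 99.2 with FGF9. The AI samples had 168, 169 and 206 FPKM, against 66.4, 75 and 74.85 with FGF9. Without FGF9, Id3 was higher in both induction media than in CM, by 0.53 in OI (SE 0.10, edgeR adjusted p = 3.75e-04) and 1.18 in AI (SE 0.10, adjusted p = 6.09e-10), and the AI_F9 samples lay within 66.4 to 75 FPKM, beside 68.8 to 77.0 for CM. With FGF9, Id3 fell in AI by -1.12 (SE 0.10, adjusted p = 1.91e-09), a DEG at 2.18-fold, and in OI by -0.33 (SE 0.10, adjusted p = 0.0101) with overlapping values. The fall in OI was lost without OI replicate 3 (-0.21, adjusted p = 0.0999) or OI_F9 replicate 2 (-0.23, adjusted p = 0.0789). In CM the change was -0.12 with an interval of -0.32 to 0.08 (adjusted p = 0.398). The response in AI differed from that in CM by -1.01 (SE 0.14, adjusted p = 4.10e-06) and from that in OI by -0.79 (SE 0.14, adjusted p = 8.37e-05). The first of these was under the fold limit for a DEG in 6 of 29 alternatives. Among them it was -0.94 without replicate 3 (adjusted p = 1.96e-07) and -0.91 without AI replicate 3.

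Id2 varied least. Its group means ran from 21.1 FPKM in AI_F9 to 29.5 in AI, a 1.40-fold range in which the values of every group overlapped those of its neighbour in the order. It had 27.2, 27.5 and 33.8 FPKM in AI and 21.5, 20.1 and 21.7 in AI_F9, and it fell there by -0.28 (SE 0.09, edgeR adjusted p = 0.0163). This fall was lost without AI replicate 3 (-0.18, adjusted p = 0.118) or AI_F9 replicate 2 (-0.23, adjusted p = 0.0803) and was -0.49 with library totals as the scaling. In CM it had 21.4, 21.6 and 23.9 FPKM, and in CM_F9 25.3, 27.4 and 27.9, with a change of 0.21 (SE 0.09, adjusted p = 0.0873). That value missed the threshold, although the groups did not overlap, and passed it with library totals as the scaling (0.27, adjusted p = 0.0235), without replicate 3 (0.21, adjusted p = 0.0126) and with the replicate number as a block (0.21, adjusted p = 0.0125). In OI, with 24.7, 22.8 and 30.8 FPKM against 28.7, 27.7 and 29.1 in OI_F9, the change was 0.08 with an interval of -0.11 to 0.26, and without replicate 3 it was 0.20 (adjusted p = 0.0209). The Id2 response in AI was below that in CM by -0.49 (SE 0.13, adjusted p = 0.0049) and below that in OI by -0.36 (SE 0.13, adjusted p = 0.0353). With library totals as the scaling these were -0.75 and -0.61. The call against OI was lost without OI replicate 1 or 2, AI replicate 3, or AI_F9 replicate 1 or 2 (adjusted p from 0.0513 to 0.118), and in a fit of the groups compared alone (0.0545). Between media without FGF9, Id2 was higher in AI than in CM by 0.29 (SE 0.09, edgeR adjusted p = 0.00949), without overlap. That difference ran from 0.18 to 0.36 when 1 library was left out. OI against CM (0.21, adjusted p = 0.123) and AI against OI (0.09, adjusted p = 0.442) did not pass.

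Because the 4 ID proteins compete for the same partners, their transcripts were also summed, as a description. The sum was 129 ± 6.99 FPKM (SD, n = 3) in CM against 143 ± 2.29 with FGF9, 197 ± 32.6 in OI against 182 ± 22.2, and 261 ± 31.1 in AI against 146 ± 4.08. The composition changed in every medium. Id1 made up 16.6% to 19.6% of the sum in the untreated groups and 30.0% ± 0.855, 34.2% ± 1.20 and 33.9% ± 1.40 (SD, n = 3) in CM_F9, OI_F9 and AI_F9. For Id3 the share came to 57.2% in CM, 55.1% in OI and 69.3% for the AI samples, against 48.6% to 49.6% in the 3 FGF9 groups. Id4 went from 12.1% ± 1.34 of the sum in OI to 1.38% ± 0.152 in OI_F9. Id1 is the shortest transcript of the 4 and Id4 the longest, and in counts not divided by length the share of Id3 in OI turned direction, with 49.3% in OI and 51.1% in OI_F9.

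The partners moved as well. Tcf4 (the E protein E2-2) had 8.01 ± 0.229 FPKM in CM and 19.9 ± 0.641 in CM_F9, and 7.07 ± 0.79 in OI and 22.6 ± 2.42 in OI_F9 (SD, n = 3). It rose with FGF9 by 1.25 (edgeR adjusted p = 2.09e-12) in CM and 1.63 (adjusted p = 1.90e-14) in OI, both DEGs, and by 0.34 (adjusted p = 4.48e-04) in AI. Tcf12 rose by 0.57, 0.93 and 0.15 in CM, OI and AI (adjusted p = 1.22e-08, 2.46e-12 and 0.0326). Tcf3 rose by 0.22 in CM and 0.44 in OI (adjusted p = 0.0193 and 4.78e-05) and fell in AI by -0.53 (adjusted p = 3.92e-06). The ratio of summed ID to summed E protein FPKM was 3.72 ± 0.106 in CM against 2.57 ± 0.113 with FGF9, 6.73 ± 1.59 in OI against 3.10 ± 0.469, and 7.75 ± 1.09 in AI against 5.08 ± 0.387 (SD, n = 3). The ranges did not overlap in any medium, and OI replicate 3 had the highest OI value, 8.56. An exact permutation test of 3 samples against 3 cannot go below p = 0.1, and this ratio of transcripts says nothing of the proteins.

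**Figure D2:**
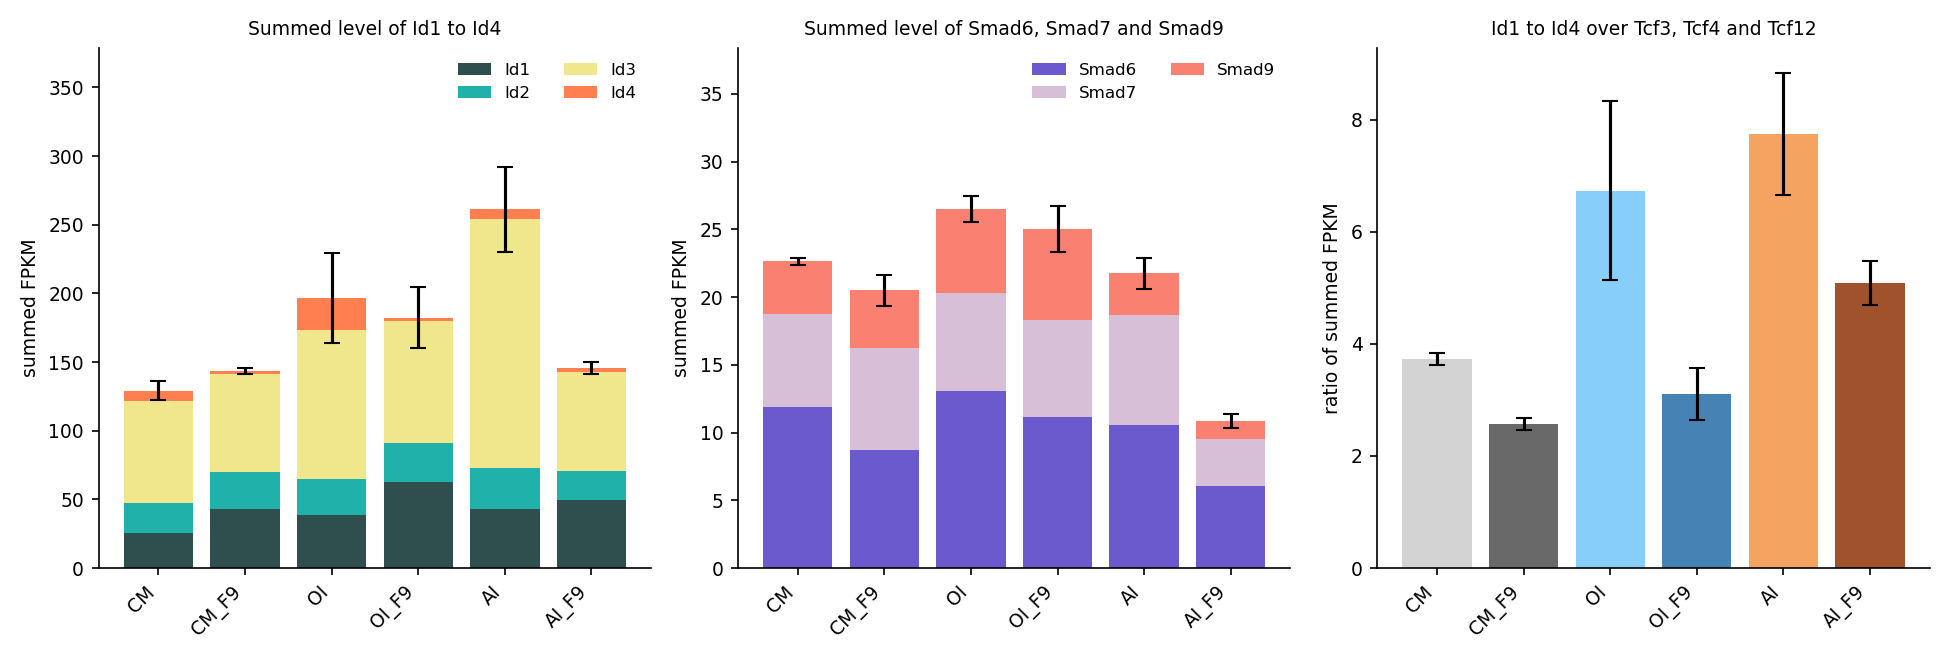
Stacked bars of mean FPKM per group for Id1 to Id4 (left) and for Smad6, Smad7 and Smad9 (middle), and the ratio of summed Id1 to Id4 FPKM to summed Tcf3, Tcf4 and Tcf12 FPKM (right). Error bars are the SD of the sum or ratio over 3 samples. The ID sum peaks at 261 FPKM in AI, the SMAD sum is lowest at 10.9 FPKM in AI_F9, and the ratio is lower with FGF9 in each medium.

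Of the bHLH factors that pair with E proteins, 9 of 21 listed passed the filter. With FGF9, 0 of these were higher DEGs in CM, OI or AI (5.50%, 5.48% and 6.66% of all genes). The lower DEGs numbered 2 for CM, 2 for OI and 5 for AI (5.16%, 6.07% and 9.32% of all genes). Hand2, which patterns heart and limb, fell in all 3 media by -1.15, -1.57 and -1.59 on the log2 scale (edgeR adjusted p = 0.00371, 9.95e-06 and 1.58e-06). Twist1, which holds back osteoblast maturation, rose in CM by 0.38 (adjusted p = 5.70e-04) and fell in AI by -0.58 (adjusted p = 3.76e-06), with 0.13 (adjusted p = 0.235) in OI. Atoh8, itself a target of BMP signalling, fell in AI by -1.40 (adjusted p = 3.03e-13) and by -0.19 in OI (adjusted p = 0.0399). Lyl1, a haematopoietic factor, fell in AI by -1.84 (adjusted p = 1.96e-04).

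Smad6 fell with FGF9 in each medium. It had 11.5, 11.7 and 12.5 FPKM in CM and 9.10, 8.07 and 9.07 in CM_F9. The OI samples had 12.6, 14.1 and 12.6 FPKM and the OI_F9 samples 11.8, 10.1 and 11.5. The AI samples had 10.5, 11.5 and 9.79 FPKM, against 6.11, 6.08 and 5.86 with FGF9. The groups did not overlap in any medium. The log2 fold change was -0.51 (SE 0.08, edgeR adjusted p = 1.48e-05) in CM, -0.28 (SE 0.08, adjusted p = 0.00636) in OI and -0.61 (SE 0.08, adjusted p = 1.27e-06) in AI, so that it was a DEG in none. The response in AI was below that in OI by -0.33 (SE 0.11, adjusted p = 0.0221), and without replicate 3 this difference missed the threshold (-0.33, adjusted p = 0.0662). Without OI replicate 3 or AI replicate 2 it was -0.29 in both cases (adjusted p = 0.0554 and 0.0622), and with library totals as the scaling it was -0.58. The difference between AI and CM was -0.10 with an interval of -0.32 to 0.12, and it passed with library totals as the scaling (-0.37, adjusted p = 0.0114). Without FGF9, Smad6 was lower in AI than in OI by -0.40 (SE 0.08, adjusted p = 1.34e-04) and lower than in CM by -0.29 (SE 0.08, adjusted p = 0.00311). The call against CM was lost with library totals as the scaling (adjusted p = 0.0589) and without replicate 3 (adjusted p = 0.0535).

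Smad7 (chr18:75500600-75529006, GRCm39, plus strand) stayed in a narrow range in every group but AI_F9. It had 7.33, 6.69 and 6.57 FPKM in CM, 7.92, 6.96 and 7.61 in CM_F9, 7.06, 7.15 and 7.44 in OI, and 7.52, 6.38 and 7.56 in OI_F9. The AI samples had 7.50, 8.63 and 8.23 FPKM, against 3.58, 3.84 and 3.12 with FGF9. The 3 AI_F9 samples were below each of the other 15. Smad7 fell in AI by -1.002 (SE 0.09, edgeR adjusted p = 1.67e-09), just past the limit for a DEG at 2.003-fold, and without replicate 3 it was -0.93 (adjusted p = 2.34e-07). The fall was under that limit in 5 of 29 alternatives. In CM the change was 0.06 with an interval of -0.10 to 0.23, and in OI -0.06 with an interval of -0.23 to 0.11. The response in AI was below that in CM by -1.07 (SE 0.12, adjusted p = 2.15e-07) and below that in OI by -0.94 (SE 0.12, adjusted p = 1.42e-06). The first was -0.93 without replicate 3.

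Smad9, the least abundant member over most groups, showed both an effect of the medium and one of FGF9. It had 4.05, 4.12 and 3.42 FPKM in CM and 4.58, 4.24 and 3.92 in CM_F9, 6.62, 6.34 and 5.62 in OI, and 7.22, 6.69 and 6.27 in OI_F9. The AI samples had 2.89, 2.96 and 3.35 FPKM, against 1.36, 1.34 and 1.32 with FGF9. The order OI above CM above AI held for every sample without FGF9. Smad9 was higher in OI than in CM by 0.66 (SE 0.09, edgeR adjusted p = 9.98e-06), lower in AI than in CM by -0.44 (SE 0.10, adjusted p = 4.23e-04), which was -0.29 with limma on log2(FPKM + 0.5), and lower in AI than in OI by -1.10 (SE 0.10, adjusted p = 8.41e-10). With FGF9 it fell in AI by -0.99 (SE 0.11, adjusted p = 5.03e-08), just under the fold limit. It was past that limit, and so a DEG, in 16 of 29 alternatives, among them library totals as the scaling (-1.20) and a fit of the groups compared alone (-1.04). In CM the change was 0.07 with an interval of -0.11 to 0.26, and in OI also 0.07 with an interval of -0.11 to 0.25. The response in AI was below that in CM by -1.07 (SE 0.14, adjusted p = 2.21e-06) and below that in OI by -1.06 (SE 0.14, adjusted p = 1.81e-06), and without replicate 3 these were -0.96 and -0.98. The highest group, OI_F9, had 5.02 times the FPKM of the lowest, AI_F9, which was 10.4 times for Id4, from OI to CM_F9, and 1.40 to 2.55 times for the other 5 genes.

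The 3 SMAD transcripts summed to 22.6 ± 0.249 FPKM in CM against 20.5 ± 1.17 with FGF9, 26.5 ± 0.979 in OI against 25.0 ± 1.69, and 21.8 ± 1.15 in AI against 10.9 ± 0.505 (SD, n = 3). Over the 18 samples, Pearson's r of log2(FPKM + 0.5) was 0.80 between Smad6 and Smad7, 0.81 between Smad6 and Smad9 and 0.75 between Smad7 and Smad9. Between ID genes it ran from -0.49 for Id1 with Id4 to 0.62 for Id2 with Id3. These points share media and treatment, so r describes the groups as much as the genes.

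**Figure D3:**
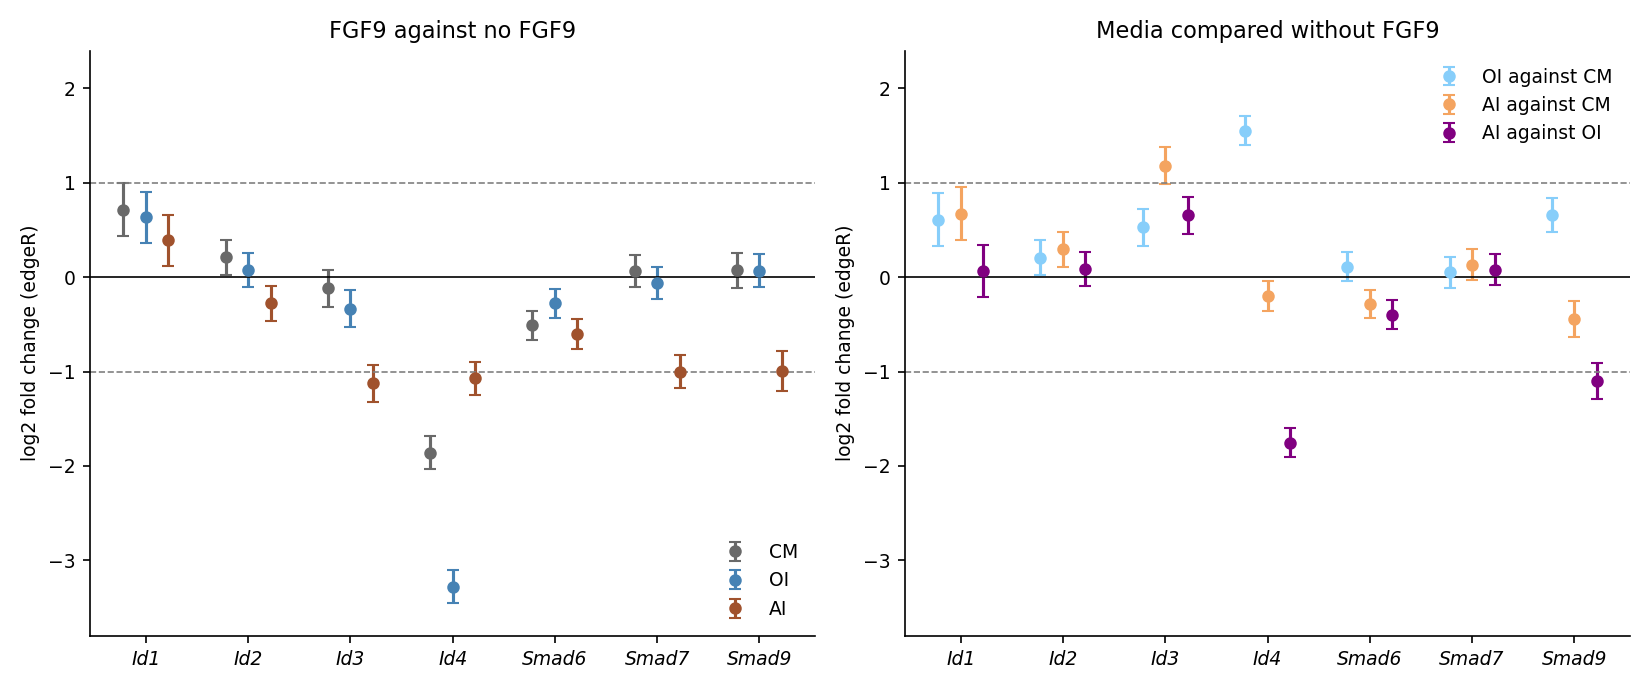
Log2 fold changes from edgeR (vertical axis) of the 7 genes with FGF9 in each medium (left) and between media without FGF9 (right). Bars are 95% intervals (estimate ± 1.96 SE) and dashed lines the fold limit for a DEG. Smad7 and Smad9 lie near 0 in CM and OI and near -1 in AI, and Id4 falls by -3.28 in OI.

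Counted over the 7 members, 3 rose or fell with FGF9 in CM, 4 did in OI and 7 did in AI, while 37.3%, 39.9% and 50.6% of all genes tested did so. As DEGs, 0 members rose in CM, OI or AI (5.50%, 5.48% and 6.66% of all genes), while the number that fell was 1, 1 and 3 (5.16%, 6.07% and 9.32%). The median log2 fold change of the members was 0.06 in CM, -0.06 in OI and -0.99 in AI, against 0.02, 0.01 and 0.05 for all genes. Between media without FGF9, 4 members differed between OI and CM, 6 between AI and CM and 4 between AI and OI (22.6%, 59.0% and 58.8% of all genes). DEGs among them were 1 higher and 0 lower for OI against CM (3.55% and 1.93% of all genes), 1 and 0 for AI against CM (8.68% and 13.5%), and 0 and 2 for AI against OI (7.80% and 14.1%). The response to FGF9 differed between OI and CM for 1 member, between AI and CM for 5 and between AI and OI for 6 (5.48%, 39.9% and 40.0% of all genes). As DEGs of the difference these were 1, 3 and 2 (1.63%, 14.1% and 14.0% of all genes).

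The other genes of the pathway were read from lists of ligands, receptors, antagonists and targets. Of all genes tested, 5.50%, 5.48% and 6.66% were higher DEGs with FGF9 in CM, OI and AI, and 5.16%, 6.07% and 9.32% were lower. The counts of each list below stand beside these shares, and counts of 1 or 2 in a list are too few to set apart from them. Of 11 BMP ligands tested, 6 were higher DEGs and 2 lower with FGF9 in CM, 5 and 2 in OI, and 2 and 4 in AI. Bmp2, which induces bone, had 1.5 ± 0.659 FPKM in CM and 34.5 ± 1.05 in CM_F9 (SD, n = 3) and rose by 4.45, 4.91 and 1.70 in CM, OI and AI (edgeR adjusted p = 4.66e-16, 2.10e-16 and 7.65e-09). Gdf6, a ligand of joint formation, rose by 4.70 in CM and 3.44 in OI (adjusted p = 1.34e-19 and 5.12e-18), with 0.06 in AI (adjusted p = 0.666). Bmp4 fell by -2.97, -2.42 and -3.03 (adjusted p = 3.66e-18, 3.75e-16 and 9.46e-15), from 52.9 to 7.05 FPKM in CM and from 6.12 to 0.65 in AI. Bmp7 rose in each medium, by 3.95, 4.27 and 1.83 (adjusted p = 7.27e-12, 2.88e-12 and 7.22e-08), from levels of 0.0733, 0.0667 and 0.307 FPKM.

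Among 11 receptors and co-receptors, 2 were higher DEGs and 1 lower in CM, 1 and 1 in OI, and 0 and 2 in AI. Eng, the co-receptor endoglin, fell in AI by -1.80 (edgeR adjusted p = 2.62e-12) from 11.9 to 2.95 FPKM, and the type I receptor Acvr1 fell there by -0.87 (adjusted p = 4.08e-12). Rgmb, a BMP co-receptor, rose in CM and OI by 1.59 and 1.23 (adjusted p = 3.03e-16 and 4.83e-14). Tgfbr3, the co-receptor betaglycan, rose by 1.22, 0.78 and 0.30 in CM, OI and AI (adjusted p = 4.01e-13, 1.03e-09 and 4.95e-04). Of the 5 signalling SMADs, 0 were higher and 0 lower DEGs in CM, 1 and 0 in OI, and 0 and 0 in AI. The one in OI was Smad3, of the TGF-beta branch, at 1.09 (adjusted p = 8.49e-12), and Smad1, of the BMP branch, fell in AI by -0.92 (adjusted p = 1.63e-08). Smad5 changed by 0.24, 0.24 and -0.22 and the common partner Smad4 by 0.11, 0.02 and -0.21 in CM, OI and AI (adjusted p of Smad4 = 0.128, 0.842 and 0.00275).

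Secreted BMP antagonists moved in both directions. Of 12 tested, 2 were higher DEGs and 3 lower in CM, 1 and 3 in OI, and 1 and 4 in AI. Grem1 (gremlin 1) rose in CM and OI by 1.37 and 1.23 and fell in AI by -0.79 (edgeR adjusted p = 1.84e-16, 1.16e-15 and 3.69e-12). Nbl1 likewise rose in CM and OI by 1.17 and 0.97 and fell in AI by -1.84 (adjusted p = 9.75e-13, 2.70e-11 and 4.09e-16). Chrdl1 (chordin-like 1) had the opposite pattern, with -3.81 and -5.09 in CM and OI and 1.20 in AI (adjusted p = 1.08e-17, 1.33e-19 and 1.58e-08). Fst (follistatin), which binds activins and some BMPs, fell by -0.72, -1.05 and -2.23 (adjusted p = 9.63e-09, 8.92e-12 and 3.28e-17). Of 15 intracellular SMAD regulators, 1 was a higher DEG and 1 a lower one in CM, 1 and 0 in OI, and 0 and 1 in AI. Pmepa1, which keeps SMADs from TGF-beta receptors, fell by -1.17, -0.62 and -2.55 (adjusted p = 1.71e-10, 5.40e-06 and 3.43e-16). Tgif1, a corepressor of SMADs, rose by 1.38 and 1.29 in CM and OI (adjusted p = 3.39e-13 and 1.40e-12), with -0.04 in AI (adjusted p = 0.665). Smurf2, a ubiquitin ligase that acts with SMAD7, fell in AI by -0.81 and Tob1 rose there by 0.81 (adjusted p = 4.02e-12 and 8.50e-11).

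Of 18 other BMP target genes, 4 were higher DEGs and 2 lower with FGF9 in CM, 5 and 2 in OI, and 0 and 5 in AI, with a median of 0.39, 0.27 and -0.67 on the log2 scale against 0.02, 0.01 and 0.05 for all genes. Grem1, Nog and Bambi are on this list and on that of antagonists. Dlx3, a homeobox gene, rose in CM and OI by 3.07 and 1.87 (edgeR adjusted p = 2.75e-11 and 4.09e-08). Nog (noggin) fell by -2.48, -1.03 and -0.78 (adjusted p = 7.15e-12, 3.62e-06 and 1.50e-04). The 5 lower DEGs in AI were Atoh8, Msx1, Msx2, Dlx5 and Runx3. Of 13 TGF-beta targets, 0 were higher DEGs in CM, OI or AI, and 7, 7 and 9 were lower, with medians of -1.17, -1.24 and -2.30. They included Postn (periostin) at -4.95, -5.00 and -3.32, Acta2 at -3.28, -4.09 and -7.67, and Ccn2 at -1.78, -1.97 and -4.44 (adjusted p from 8.54e-22 to 7.58e-13). Col1a1, which encodes a chain of type I collagen, fell by -2.55, -2.79 and -4.27 (adjusted p = 1.24e-18, 2.51e-19 and 9.43e-22). Some TGF-beta targets are on other lists too, Acta2 and Tagln on the smooth muscle list below and Col1a1 on the osteoblast list. Pmepa1 and Skil are also among the SMAD regulators, so these lists are not separate observations. FGF response genes were mostly higher in CM and OI, with 14 higher and 0 lower DEGs of 17 in CM and 14 and 0 in OI. In AI, 7 of the 17 were higher DEGs and 1 was lower. Spry1, Spry2 and Spry4 encode feedback inhibitors and Etv1 an ETS factor. Spry4 rose by 3.43, 2.67 and 1.76 (adjusted p = 4.18e-19, 2.19e-17 and 6.69e-15), Spry1 by 2.08, 2.68 and 1.61, Spry2 by 2.36, 1.87 and 0.63, and Etv1 by 3.07, 3.54 and 2.11 (adjusted p from 7.13e-19 to 1.42e-07 over the last 3 genes).

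**Figure D4:**
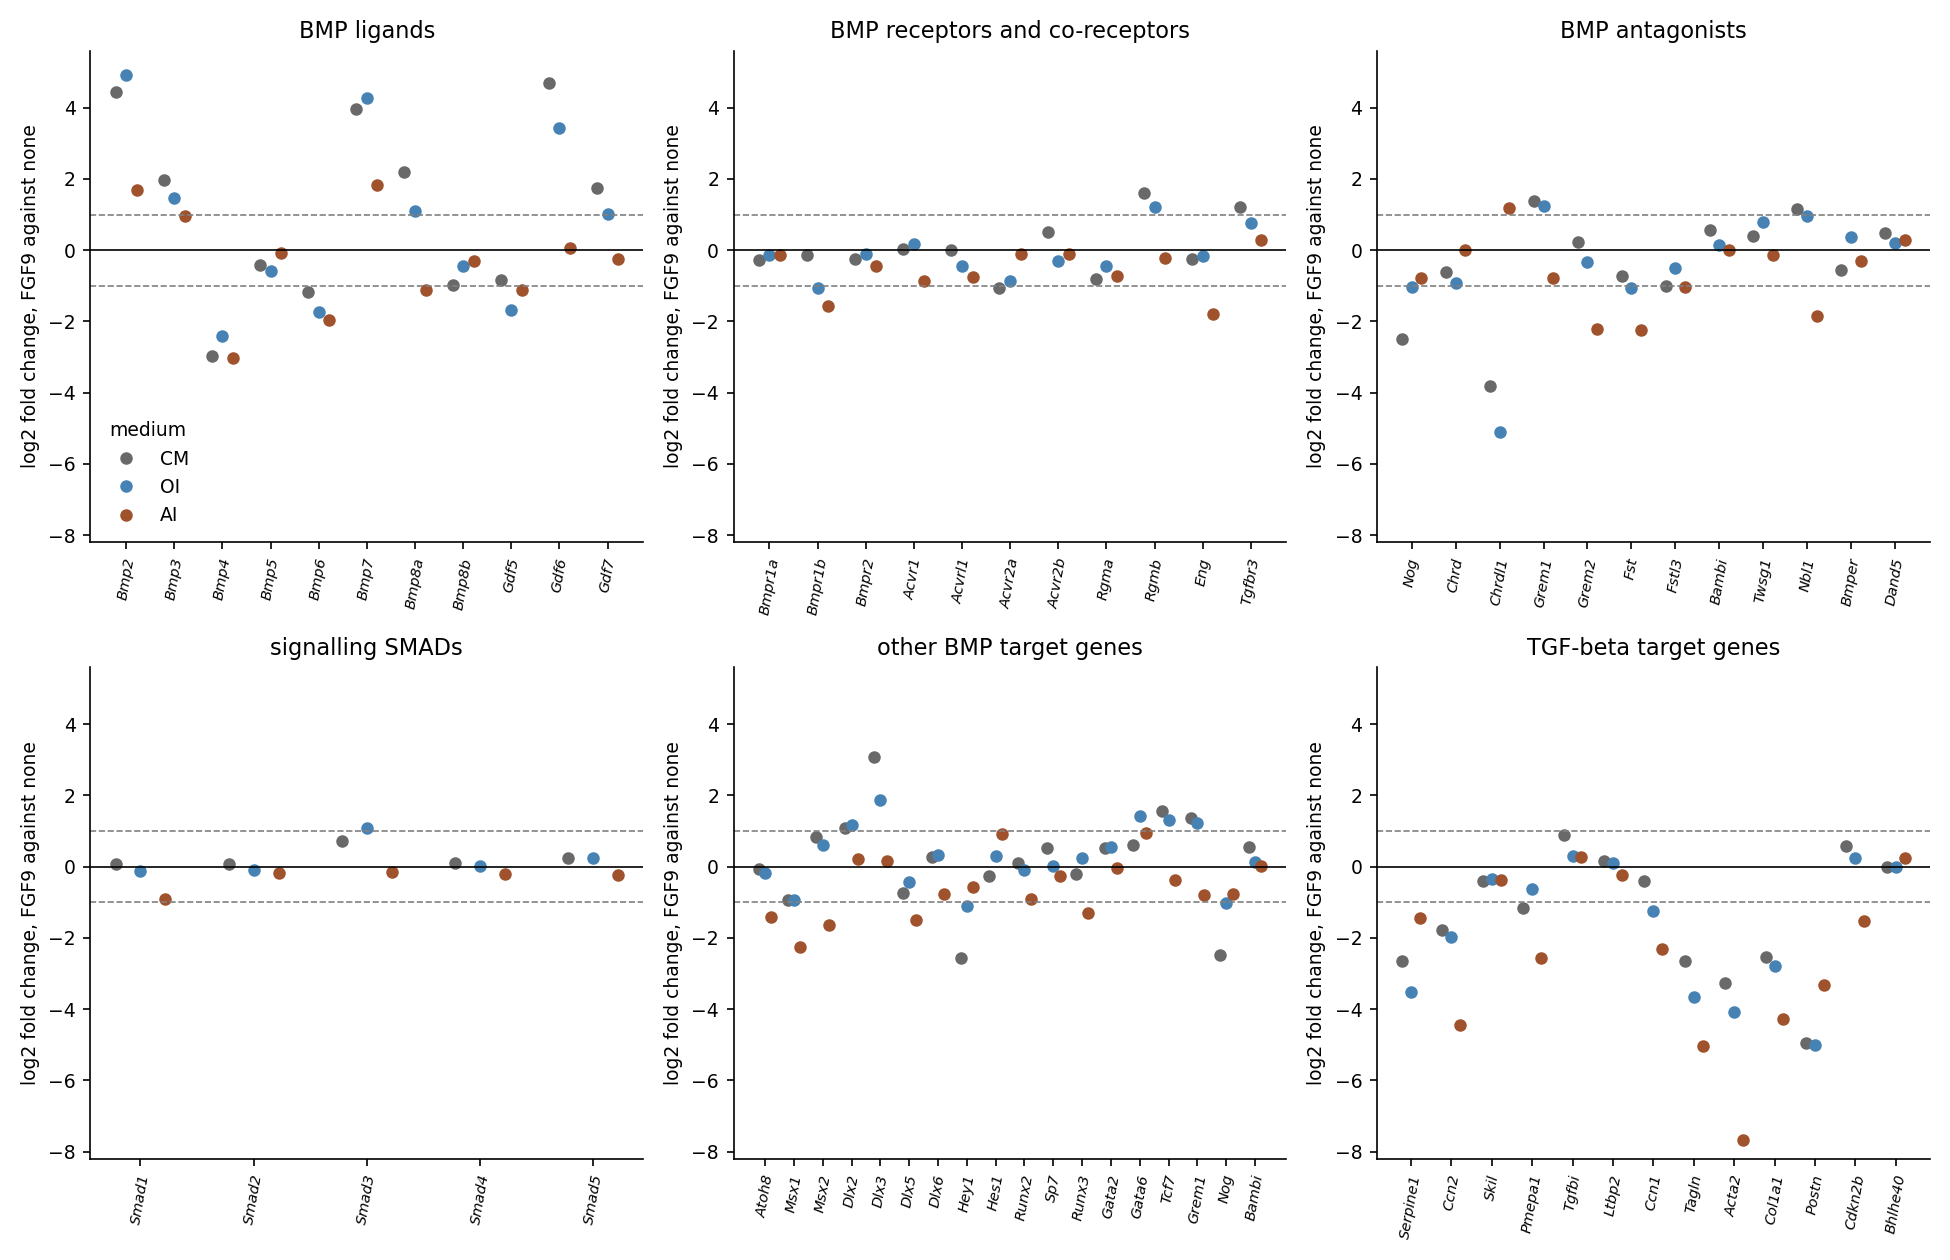
Log2 fold change with FGF9 from edgeR (vertical axes) of each tested gene of 6 lists, in CM, OI and AI. Dashed lines mark the fold limit for a DEG. Bmp2 and Gdf6 rise by more than 3 on the log2 scale in CM and OI, Bmp4 falls in each medium, and the TGF-beta targets are mostly below 0.

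Levels of cell type markers moved with the members in AI, and in bulk samples fewer cells of a type and less RNA per cell cannot be told apart. Not every list stands for other cells, as adipocytes and osteoblasts arise from BMSCs. Of the smooth muscle list, Acta2 had a mean of 868 FPKM in CM, against 385 for the stromal marker Itgb1. Whether BMSCs or other cells expressed the smooth muscle genes was not tested. With FGF9 in AI, 12 of 14 tested endothelial markers were lower DEGs and 0 higher, and their summed level over 15 markers was 19.2 to 21.5 FPKM in AI and 8.06 to 8.90 in AI_F9. Pecam1 and Cdh5, both on that list, had 1.9 ± 0.39 and 4.71 ± 0.646 FPKM in AI and 0.34 ± 0.0755 and 0.683 ± 0.0643 in AI_F9 (SD, n = 3). Of 13 macrophage and haematopoietic markers tested, 12 were lower DEGs and 1, Cd34, was higher, and the sum of 15 was 1398 to 1618 FPKM in AI and 399 to 437 in AI_F9. Of 12 smooth muscle markers, 8 were lower and 0 higher, with sums of 327 to 366 and 14.4 to 17.1 FPKM. Adipocyte markers rose, with 6 of 11 higher DEGs and 0 lower and sums of 2217 to 2439 FPKM in AI and 4935 to 5371 in AI_F9. In CM and OI the smooth muscle sums also dropped, from 1229 to 1377 FPKM in CM to 172 to 179 in CM_F9 and from 1048 to 1264 in OI to 84.3 to 105 in OI_F9. The endothelial sums were 8.60 to 9.69 FPKM in CM_F9, 17.3 to 19.8 in OI and 10.2 to 12.0 in OI_F9. Those of the macrophage and haematopoietic list were 467 to 541, 1156 to 1412 and 1018 to 1066 FPKM in these groups. Against CM without FGF9, AI had 3 of the 13 tested as higher DEGs (Lyz2, C1qa and C1qb) and 6 as lower ones. That sum thus does not stand for each marker of the list. Stromal sums were 723 to 747 FPKM in AI and 375 to 388 in AI_F9, with 2 of 12 markers higher DEGs, Ly6a and Nt5e, and 4 lower. With FGF9, 5 of 10 osteoblast markers were higher DEGs in each medium (Bglap, Spp1, Dmp1, Phex and Ifitm5) and 3 were lower (Alpl, Ibsp and Col1a1). The sums of all 10 were 1227 to 1384 FPKM in AI and 5279 to 5610 in AI_F9, while Alpl had 59.4 FPKM in AI and 4.56 in AI_F9. The part of changes in cell types in the falls of Id3, Id4, Smad6, Smad7 and Smad9 was not tested.

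For each member, the 3 genes most like it were named by Pearson's r of log2(FPKM + 0.5) over the 18 samples, among 9080 genes with a largest group mean of at least 5 FPKM. Id4 was most like Mylk, the myosin light chain kinase (r = 0.99), Gas6 (0.97) and Chfr (0.96). Mylk is on the smooth muscle list above. Smad6 was most like Klf7 (0.96) and the macrophage genes Cd68 (0.96) and C3ar1 (0.96), of which Cd68 is on the macrophage list. Smad9 was most like the matrix genes Smoc2 (0.98) and Pcolce2 (0.97) and Pcbp4 (0.98). Smad7 was most like Wdr81, Slc12a4 and Nradd (0.96 each). Id1 followed Eif3i (0.93), Rps9 (0.93) and Suds3 (0.92), Id2 followed Mcl1, Gatd1 and Grwd1 (0.89 each), and Id3 followed Mad2l2 (0.95), Poldip3 (0.95) and Ubb (0.94). Of these 21 genes, none was another member, and Mylk and Cd68 were the only ones on a list used here.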

How the data were processed

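Poly(A) RNA of 18 BMSC samples was sequenced. Per the labels, the authors used cutadapt 1.9.1 for trimming, HISAT2 2.2.1 for alignment to GRCm39 and HTSeq 0.6.1 for counting. The authors deposited raw counts and FPKM. The FPKM were checked to equal counts divided by exonic length and library total within 1% for every value of at least 5 FPKM. Counts were tested with edgeR 4.0.16 in R 4.3.3 (filterByExpr, TMM scaling, quasi-likelihood fit of 6 group means over all 18 samples, Benjamini-Hochberg over 17631 genes per contrast). Differences between responses were contrasts of that fit. The common biological coefficient of variation was 7.69%. DESeq2 1.42.0, limma 3.58.1 on log2(FPKM + 0.5) and other scalings, filters and samples were alternatives. The fit was tested on simulated counts.

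The 7 genes and the lists were chosen with earlier results of these data known. Named were all 7 members, the 3 genes most like each and, per list, the 4 genes with the smallest adjusted p over the FGF9 contrasts, and further genes were named after their values were seen. Samples with the same replicate number deviated together in OI with OI_F9 (r = 0.33 to 0.36) and AI with AI_F9 (0.13 to 0.40), all over 0.1, and not in CM with CM_F9 (0.03 to 0.08). By that rule the numbers pair the OI and the AI samples. The pairing in AI was weak, as AI replicate 2 correlated more with AI_F9 replicate 1 (r = 0.18) than with AI_F9 replicate 2 (0.13). Over all pairs of groups, a sample correlated best with the one of its own number in 32 of 45 cases. Promoter sequences are RefSeq's, of GRCm38.p6.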

Additional observations from a re-analysis of the deposited data

Results flagged for a closer look

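The response to FGF9 differed between media for 4 genes past both limits for a DEG, each tested as a difference of 2 log2 fold changes in edgeR's fit. Id4 fell more in OI than in CM, by -1.42, and less in AI than in OI, by 2.21. The Id3 response in AI was below that in CM by -1.01, and the Smad7 response by -1.07, and neither gene passed the test in CM. The Smad9 response differed between AI and CM by -1.07 and between AI and OI by -1.06. Under 29 alternatives, the AI minus CM call was lost in 6 for Id3, 2 for Smad7 and 3 for Smad9. The AI minus OI call of Smad9 was lost in 4. Of all genes, 1.63%, 14.1% and 14.0% were called in the comparisons of OI with CM, AI with CM and AI with OI.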

How the results depend on the processing

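Of 63 member results, 15 were DEGs, 9 of these stayed past both limits under each of 29 alternatives and 0 changed direction. Of the 48 others, 36 kept their direction and stayed uncalled. For FGF9 in AI, 2 to 4 members were DEGs instead of 3. For AI against OI, 1 member was a DEG instead of 2 with limma on log2 FPKM (0.5, 0.1 or 1 added). For AI minus OI, 4 members were called with library size scaling and with limma (0.5 or 0.1 added), and leaving out 1 library gave 1 to 3, with 1 without OI replicate 3, without AI replicate 3 or without replicate 3 of every group, an alternative chosen after seeing the data. For AI minus CM, that last one gave 0 instead of 3, the values of Id3, Smad7 and Smad9 being -0.94, -0.93 and -0.96. Small differences that were not DEGs changed sign when libraries were left out. The FGF9 effect ran from -0.0134 to 0.2101 for Id2 in OI, -0.1037 to 0.015 for Smad7 in OI and -0.0253 to 0.1385 for Smad9 in CM. AI against OI ran from -0.1096 to 0.3265 for Id1 and -0.0353 to 0.2236 for Id2, and OI against CM from -0.0129 to 0.0942 for Smad7. OI minus CM ran from -0.2383 to 0.1868 for Id1, -0.2158 to 0.0109 for Id2 and -0.0685 to 0.0935 for Smad9. The cause was not tested.

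With library size scaling the DEGs for FGF9 in AI were 27.8% higher and not 41.7%, and those of AI minus CM and AI minus OI 20.7% and 23.1% and not 40.1% and 42.7%. With the replicate block, FGF9 in AI gave -1.07 for Id4, -1.002 for Smad7 and -0.99 for Smad9, and the block changed no DEG call of a member. It moved Id2 past the adjusted p threshold in CM (0.0125) and for OI against CM (0.0244). Precision is limited by 3 samples a group.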
